A study of Mus musculus with 25 samples.

Results

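The senescence and p53 response genes described here are 10 genes found by symbol among the 54752 gene rows of the count tables: Trp53, Mdm2, Cdkn1a, Ccng1, Gadd45a, Gadd45b, Cdkn2a, Cdkn2b, Cdkn2c and Gdf15. Each symbol matched 1 row, and all 10 are protein coding. The tables hold RNA-seq counts from 25 libraries of white adipose tissue, 14 epididymal (eWAT) and 11 inguinal (iWAT), of male C57BL/6N mice. ND-fed wild type mice gave 4 eWAT and 3 iWAT libraries, HFD-fed wild type mice 5 and 5, and HFD-fed Acod1-/- mice 5 and 3. ND is normal chow and HFD is a high-fat diet that the mice ate for 16 weeks from an age of 5 weeks, except that iWAT Acod1-/- libraries 2 and 3 are labelled with 17 and 18 weeks. The Acod1-/- line (C57BL/6N-Acod1em1(IMPC)J/J) lacks the gene in every cell of the body, and no ND-fed Acod1-/- library was analysed here. Acod1, which encodes the mitochondrial enzyme that makes itaconate, had 0 to 9 reads per library in wild type tissue and 0 to 2 in Acod1-/- tissue, too few to check the genotype labels.

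The tumour suppressor p53, encoded by Trp53, is controlled mostly at the level of protein stability and, once active, raises the transcription of genes that halt the cell cycle, repair DNA or limit p53 itself. Cdkn2a, Cdkn2b and Cdkn2c belong to the INK4 family of inhibitors, which block the kinases CDK4 and CDK6 and so keep the RB protein active. Lasting p53 and RB activity is a mark of senescence, a stable growth arrest in which cells secrete inflammatory and matrix-degrading factors, and senescent cells are known to collect in obese fat.

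On GRCm38, by the GENCODE annotation, Cdkn2a (chr4:89274471-89294653) and Cdkn2b (chr4:89306299-89311039) are neighbours on chromosome 4, both on the - strand, and Cdkn2c (chr4:109660876-109667189) lies on the same chromosome. Trp53 (chr11:69580359-69591873) and Ccng1 (chr11:40748552-40755311) are on chromosome 11, and Mdm2 (chr10:117688875-117710758) and Gadd45b (chr10:80930073-80932204) on chromosome 10. Cdkn1a is at chr17:29090976-29100727, Gadd45a at chr6:67035096-67037457 and Gdf15 at chr8:70629393-70632456.

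The stretches upstream of 4 of these genes are shown because they hold the only spaced pair of p53 consensus matches found, in Cdkn1a, and motifs found at 3 genes that responded to diet. RefSeq promoters (GRCm38.p6) matched all 10 genes, with 14 start sites, and the 250 bases before each start were searched on both strands. Each stretch below runs 5′ to 3′ on the strand of the gene and stops where the first annotated exon begins. They are chr17:29090729-29090975 on the + strand, chr11:40755312-40755536 on the - strand, chr4:89311040-89311282 on the - strand and chr10:80929841-80930072 on the + strand. Capitals mark 2 matches to the p53 consensus element with the bases between them in Cdkn1a, which are letter matches and need not be the site that p53 uses, a single p53 element in Ccng1, TGACGTCA (the cAMP response element) in Cdkn2b and TATAAA (the TATA box) in Gadd45b.
Cdkn1a: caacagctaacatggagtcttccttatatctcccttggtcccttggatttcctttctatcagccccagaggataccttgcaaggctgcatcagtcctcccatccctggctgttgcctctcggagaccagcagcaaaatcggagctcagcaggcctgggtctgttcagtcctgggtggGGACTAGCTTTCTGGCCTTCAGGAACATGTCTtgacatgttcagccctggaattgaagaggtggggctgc
Ccng1: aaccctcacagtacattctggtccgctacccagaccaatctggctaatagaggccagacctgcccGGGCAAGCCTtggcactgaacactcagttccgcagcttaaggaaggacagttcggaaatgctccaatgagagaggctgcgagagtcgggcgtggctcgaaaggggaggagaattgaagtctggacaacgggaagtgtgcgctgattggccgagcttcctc
Cdkn2b: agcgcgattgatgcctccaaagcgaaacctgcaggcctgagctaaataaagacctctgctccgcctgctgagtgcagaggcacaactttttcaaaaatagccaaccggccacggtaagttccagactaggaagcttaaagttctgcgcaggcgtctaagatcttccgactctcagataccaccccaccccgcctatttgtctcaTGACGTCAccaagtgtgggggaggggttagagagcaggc
Gadd45b: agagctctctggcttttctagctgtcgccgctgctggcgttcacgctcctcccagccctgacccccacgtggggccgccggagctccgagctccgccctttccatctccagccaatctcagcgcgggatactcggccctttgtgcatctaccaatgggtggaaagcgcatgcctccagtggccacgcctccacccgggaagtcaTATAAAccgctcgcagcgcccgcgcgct

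A single p53 element (10 bases) lay in 5 of the 14 windows, those of Cdkn1a, Trp53, Mdm2, Ccng1 and Gadd45a, and in 7.13% of all 32851 promoter windows of the same length. Cdkn1a alone held 2 such elements with at most 13 bases between them, an arrangement present in 0.0639% of all windows. They lay at positions -73 to -42 from the more upstream of its 2 start sites. The window of its other start site (chr17:29093519-29093768) held no p53 element. TGACGTCA was found at Cdkn2b only (1.55% of all windows), and TATAAA at Gadd45b and, far from the start, at Trp53 (12.4%). The core of the NF-kB motif matched 8 of the 14 windows, at 7 genes, against 45.8% of all windows, and its matches overlap the p53 elements of Trp53 and Gadd45a. TGANTCA (AP-1, 6.75% of all windows) and TGATGNAA (the ATF4 and CHOP element, 3.45%) matched none of the windows. These matches describe letters in a short window and say nothing of binding.

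Libraries held 31.4 to 52.3 M reads counted on genes (median 42.1 M). Numbers in the file headers place them in 2 series, 1 of 14 libraries and 1 of 11 that holds every ND-fed library and the last-numbered library of each HFD-fed group. Diet and series therefore overlap almost fully. Markers of other cells set some libraries apart. The 8 B cell markers summed to 721 to 1060 CPM (read counts scaled to a common library size) in ND-fed iWAT, against 5.37 to 98.5 CPM in HFD-fed wild type iWAT and 2.30 to 56.1 CPM in every other group. The 8 skeletal muscle markers reached 9976 CPM in an ND-fed iWAT library, and the 8 epididymis markers 8782 CPM in an ND-fed eWAT library. Acod1-/- iWAT library 2 had 607 CPM of skin and mammary epithelium markers, against 7.04 and 7.98 CPM in the other two. The 10 adipocyte markers summed to at least 20445 CPM in every library, as the tissue label asks. The 10 macrophage markers summed to 403 to 824 CPM in ND-fed, 1476 to 5669 CPM in HFD-fed wild type and 319 to 1506 CPM in HFD-fed Acod1-/- eWAT. In whole tissue, fewer cells of a type and less RNA per cell cannot be told apart.

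Per unit of transcript length, Ccng1 (167 TPM, a count scaled for transcript length and library depth), Cdkn2c (136 TPM) and Cdkn1a (76.5 TPM) had the highest mean levels over the 25 libraries. The order of the first pair varied by group: in Acod1-/- iWAT Cdkn2c was at 155 ± 19.2 TPM and Ccng1 at 135 ± 57.5 TPM, and in ND-fed eWAT they were at 143 ± 27.9 and 150 ± 26.9 TPM. Gadd45a, Gadd45b, Mdm2, Cdkn2b and Trp53 had mean levels of 30.7, 28.9, 26.4, 20.4 and 19.5 TPM. Cdkn2a (3.12 TPM) and Gdf15 (2.23 TPM) were the least abundant, with 0 to 136 and 1 to 297 reads per library. Cdkn2a encodes both p16Ink4a and p19Arf from separate first exons, which a count per gene does not separate. All other levels below are CPM after normalization, given in library order.

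**Figure D1:**
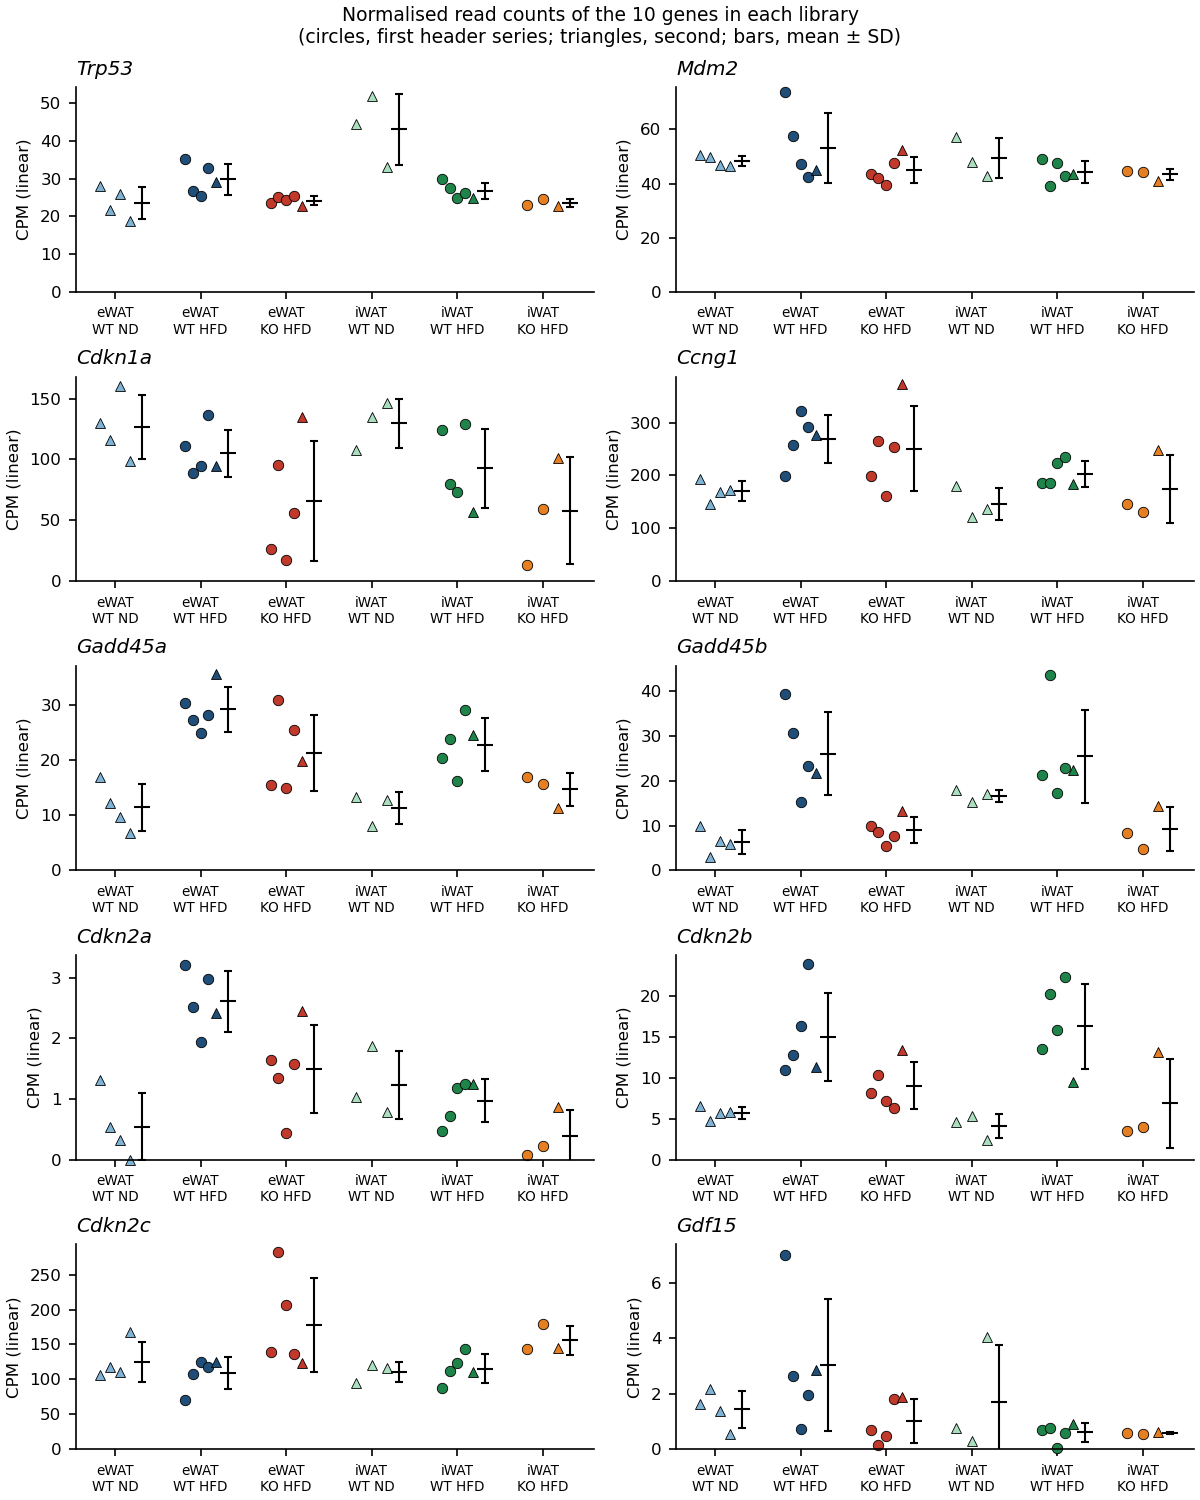
Normalised read counts (CPM, linear axis from 0) of the 10 genes in each of the 25 libraries, by depot, genotype (WT, wild type; KO, Acod1-/-) and diet. Circles and triangles are libraries of the first and second header series, and bars are mean ± SD (cut at 0); Cdkn1a spans 17.4 to 135 CPM in HFD-fed Acod1-/- eWAT against 88.5 to 136 CPM in HFD-fed wild type eWAT.

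The first comparison asked what HFD did to these genes in wild type eWAT. HFD raised 6 of the 10 genes and lowered none, when 24.8% of the 14936 genes tested were called higher and 26.9% lower (edgeR's quasi-likelihood test, Benjamini-Hochberg adjusted p under 0.1). The genes that rose were Gadd45b, Cdkn2a, Cdkn2b, Gadd45a, Ccng1 and Trp53, and the median log2 fold change over the 10 genes was 0.88, against -0.04 over all genes. Samples of the 2 diets did not overlap for 5 of them, all but Trp53, when 17.2% of all genes were apart in that direction.

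Among p53 and its regulator, Trp53 itself changed little. It stood at 28.0, 21.6, 25.9 and 18.7 CPM in ND-fed and at 35.2, 26.7, 25.5, 32.7 and 29.0 CPM in HFD-fed wild type eWAT. The ranges overlapped, and the log2 fold change was 0.34 ± 0.13 (SE; n = 4 and 5; adjusted p = 0.0491 by edgeR). The call was lost without ND-fed library 2 (adjusted p = 0.108) or 4 (0.160), without HFD-fed library 4 (0.101), and with the header series as a term (0.284). Mdm2, the ubiquitin ligase that marks p53 for degradation and is itself a p53 target, averaged 48.3 ± 2.02 CPM (SD) on ND and 53.2 ± 12.9 CPM on HFD (log2 fold change 0.14 ± 0.15, adjusted p = 0.462).

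The p53 targets did not move as 1 group. Cdkn1a encodes p21, the inhibitor of cyclin-dependent kinases through which p53 halts the cell cycle. It stood at 130, 116, 161 and 98.8 CPM on ND and at 111, 88.5, 94.9, 136 and 94.9 CPM on HFD, with overlapping ranges and a log2 fold change of -0.26 ± 0.44 (adjusted p = 0.652), which became 0.41 with the header series as a term (adjusted p = 0.641). Ccng1 encodes cyclin G1, which recruits a phosphatase to Mdm2. It rose from 170 ± 19.4 to 269 ± 45.8 CPM (log2 fold change 0.67 ± 0.21, adjusted p = 0.0215), and its lowest HFD-fed library, at 199 CPM, lay just above the highest ND-fed one, at 194 CPM.

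Both GADD45 genes rose more. These encode small stress proteins that bind PCNA and the kinase MEKK4, and Gadd45a is the classical p53 target of the pair, while Gadd45b is known as a target of NF-kB. Gadd45b was at 9.79, 3.04, 6.55 and 5.97 CPM on ND and at 39.5, 30.6, 15.2, 23.3 and 21.8 CPM on HFD. Every HFD-fed library was above every ND-fed one, and the log2 fold change was 2.04 ± 0.36 (adjusted p = 0.00103). Gadd45a was at 16.8, 12.3, 9.75 and 6.81 CPM on ND and at 30.3, 27.2, 24.8, 28.1 and 35.6 CPM on HFD. The groups were again apart, with a log2 fold change of 1.36 ± 0.26 (adjusted p = 0.00178). Gadd45a overlaps the antisense gene E230016M11Rik on 859 bases, which had a median of 73 reads per library, and whether strand was used in counting is not given in the sources used here.

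Of the INK4 genes, Cdkn2b and Cdkn2a rose and Cdkn2c, the most abundant, did not pass the test. Cdkn2b, which encodes p15Ink4b, was at 6.61, 4.73, 5.69 and 5.80 CPM on ND and at 11.0, 12.7, 16.3, 23.8 and 11.3 CPM on HFD, with the groups apart (log2 fold change 1.40 ± 0.27, adjusted p = 0.00178). Cdkn2a was at 1.31, 0.545, 0.327 and 0 CPM on ND, the last a count of 0 that allows up to 0.0573 CPM (3 reads), and at 3.21, 2.52, 1.94, 2.97 and 2.41 CPM on HFD. Low as it was, it separated the diets fully (log2 fold change 2.25 ± 0.82, adjusted p = 0.0403). Cdkn2c, which encodes p18Ink4c, averaged 125 ± 28.4 CPM on ND and 109 ± 23.1 CPM on HFD (log2 fold change -0.19 ± 0.25, adjusted p = 0.548).

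Gdf15 encodes a secreted cytokine that responds to p53 and to the integrated stress response and acts on appetite in the brainstem. It was at 1.63, 2.16, 1.39 and 0.525 CPM on ND and at 7.01, 2.64, 0.731, 1.94 and 2.84 CPM on HFD. The ranges overlapped, with HFD-fed library 1 well above all the others, and the difference did not pass the test (log2 fold change 1.09 ± 0.71, adjusted p = 0.231). Other cell markers moved with diet in eWAT. All 10 macrophage markers and all 16 proliferation genes rose, as did 9 of 10 fibroblast and progenitor markers, while 6 of 10 adipocyte markers fell and 1 rose. Their part in the changes of the 6 genes was not tested.

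**Figure D2:**
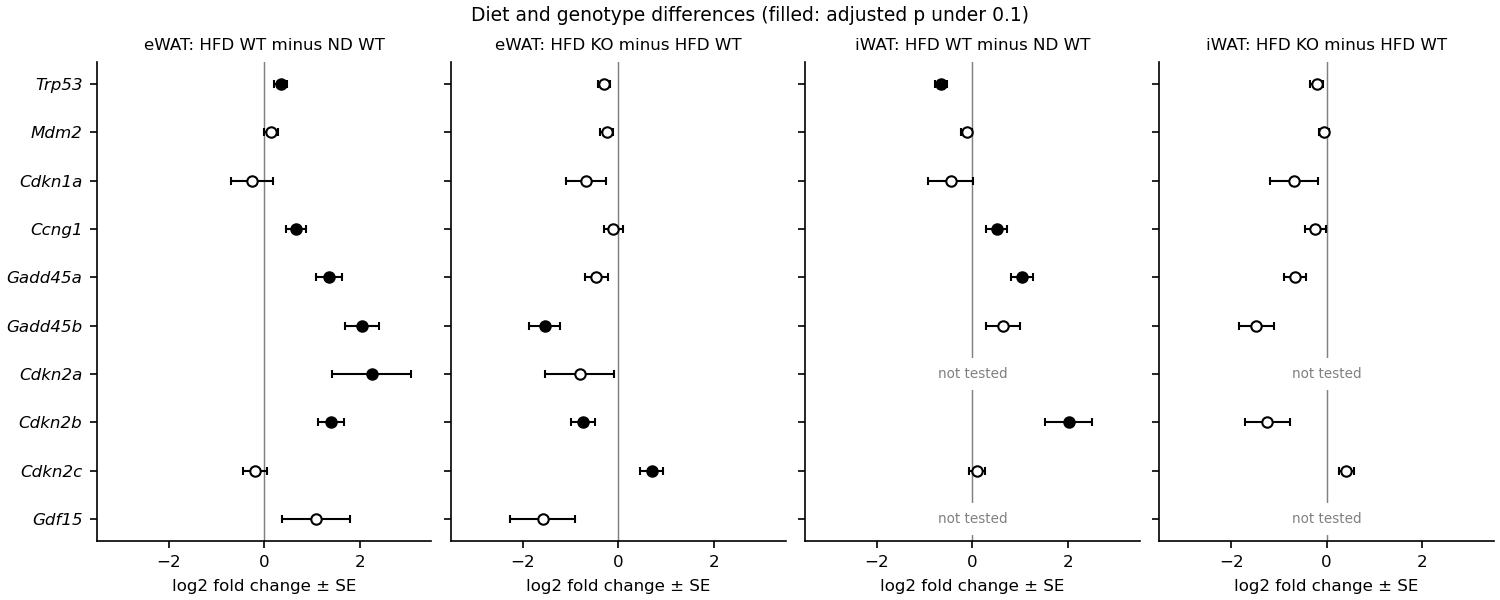
Log2 fold changes (points) with their standard errors (bars) of the 10 genes for diet and genotype in each depot; filled points have an adjusted p under 0.1 by edgeR. Diet raised 6 genes in eWAT, where genotype called 3 genes, and no gene was called for genotype in iWAT; Cdkn2a and Gdf15 fell under the filter on low counts in iWAT.

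The second comparison asked how loss of Acod1 changed these genes in eWAT on HFD. It uses the same 5 HFD-fed wild type libraries as the diet comparison, so the values of the 2 comparisons are not independent. Gadd45b and Cdkn2b were lower and Cdkn2c was higher in Acod1-/- eWAT, 3 of 10 genes, when 10.8% of 14936 genes were called lower and 9.13% higher. In either direction 19.9% of all genes were called, so 3 of 10 lies near that share and is no result about these genes as a set. The median log2 fold change of the 10 genes was -0.57, against 0.04 over all genes, and 1 of the 10 was positive.

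Gadd45b fell most firmly. Its Acod1-/- libraries were at 9.88, 8.66, 5.36, 7.75 and 13.3 CPM, all below the lowest wild type value of 15.2 CPM, and the log2 fold change was -1.54 ± 0.32 (n = 5 and 5, adjusted p = 0.0137 by edgeR). The call held when any 1 library was left out, with an adjusted p of 0.00386 to 0.0390, and within the 8 libraries of the first header series (log2 fold change -1.79, adjusted p = 0.00417). Groups of 4.34% of all genes were apart in this direction, and Trp53 was the other one of the 10.

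Cdkn2b was at 8.16, 10.3, 7.11, 6.25 and 13.4 CPM in Acod1-/- eWAT, and the highest of these lay above 3 of the wild type values. Its log2 fold change was -0.73 ± 0.25 (adjusted p = 0.0693). Cdkn2c moved the other way, to 139, 283, 207, 136 and 123 CPM from 69.7, 108, 124, 118 and 125 CPM (log2 fold change 0.70 ± 0.24, adjusted p = 0.0691), with overlap between the groups. Both calls were near the threshold. That of Cdkn2b was lost without wild type library 3 (adjusted p = 0.109) or 4 (0.187) and without Acod1-/- library 1 (0.134), 3 (0.153) or 4 (0.150), and that of Cdkn2c without wild type library 1 (0.161), 2 (0.120) or 4 (0.112) and without Acod1-/- library 2 (0.155) or 3 (0.146). Leaving out wild type library 4 or Acod1-/- library 3 left 1 of the 10 genes called, Gadd45b, and leaving out Acod1-/- library 5 gave 5. The shares of all genes called in those fits are not given here.

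Trp53 was at 23.4, 25.2, 24.2, 25.4 and 22.7 CPM in Acod1-/- eWAT, all just below the lowest wild type value of 25.5 CPM. The difference was small and did not pass the test (log2 fold change -0.30 ± 0.12, adjusted p = 0.118), though it did without ND-fed library 1 (0.0993) or 4 (0.0966) or wild type library 3 (0.0870). Gdf15 was at 0.697, 0.153, 0.463, 1.82 and 1.89 CPM, overlapping the wild type values (log2 fold change -1.58 ± 0.68, adjusted p = 0.138, which became 0.0880 without wild type library 3 and 0.0780 without Acod1-/- library 5). Cdkn2a (-0.81 ± 0.72, adjusted p = 0.491), Gadd45a (-0.46 ± 0.24, 0.224), Mdm2 (-0.24 ± 0.14, 0.268) and Ccng1 (-0.11 ± 0.20, 0.754) did not pass either, and these log2 fold changes have wide errors next to their size.

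Cdkn1a was marked by its spread in Acod1-/- tissue. In eWAT it was at 26.6, 95.3, 17.4, 55.6 and 135 CPM, a range of 7.78-fold, where the HFD-fed wild type libraries spanned 1.54-fold. In iWAT its Acod1-/- libraries were at 13.5, 59.3 and 101 CPM, a range of 7.48-fold, against 2.26-fold in the wild type. The mean differences did not pass the test (log2 fold change -0.68 ± 0.42, adjusted p = 0.309, in eWAT and -0.68 ± 0.50, adjusted p = 0.522, in iWAT). In each depot the highest Acod1-/- library was the 1 of the second header series. The HFD-fed wild type library of that series was at 94.9 CPM in eWAT and, the lowest of its group, at 57.0 CPM in iWAT. Within the first series the Acod1-/- values still ran from 17.4 to 95.3 CPM in eWAT and from 13.5 to 59.3 CPM in iWAT. Cdkn2a, at low counts, also spread more in Acod1-/- tissue, 5.64-fold against 1.66-fold in eWAT and 11.3-fold against 2.64-fold in iWAT. Not every gene did so. In eWAT Mdm2 spanned 1.33-fold in Acod1-/- against 1.75-fold in wild type libraries, and Trp53 1.12-fold against 1.38-fold. Gdf15, at low counts, spanned 1.13-fold against 35.6-fold in iWAT. The spread of all genes is not given here. Without the second-series Acod1-/- library the log2 fold change of Cdkn1a was -1.12 (adjusted p = 0.0563) in eWAT. Within the first header series it was -1.18 (0.0937) in eWAT and -1.48 (0.144) in iWAT. The part of the series in this spread was not tested. Cdkn1a overlaps the antisense gene AC167363.2, which had at most 18 reads in any library.

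In eWAT, 9 of 10 macrophage markers and 11 of 16 proliferation genes fell in Acod1-/- mice, and 6 of 10 fibroblast and progenitor markers fell too, while 6 of 10 adipocyte markers rose. Across the 14 eWAT libraries the log2 level of Gadd45b had a correlation of r = 0.92 with the log2 sum of the macrophage markers, and Trp53, Cdkn2b and Cdkn2a had r = 0.72, 0.75 and 0.66. For Cdkn2c r was -0.71. Gadd45b had nearly the same r with the fibroblast and progenitor markers (0.91) and the proliferation genes (0.89), and Cdkn2b had r = 0.78 and 0.81 with these. These values describe libraries that share diet, genotype and cell composition, and the part of any of these cells in the results was not tested.

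**Figure D3:**
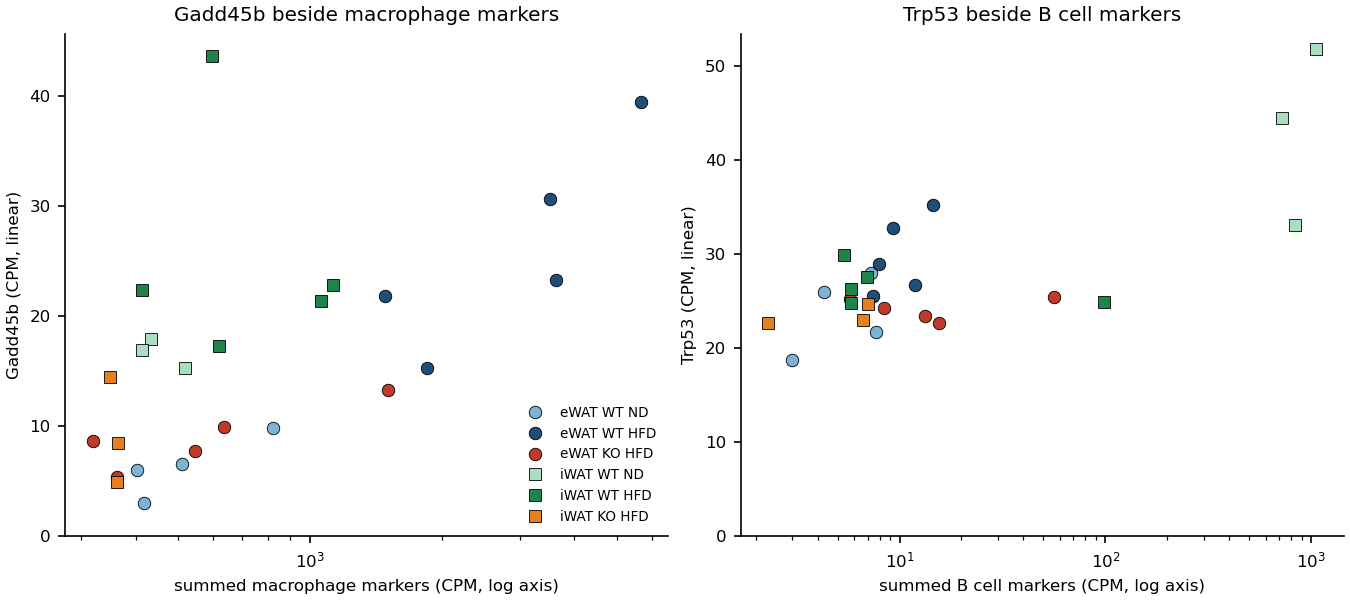
Left, Gadd45b (CPM, linear axis) against the sum of 10 macrophage markers (CPM, log axis) in each of 25 libraries; right, Trp53 against the sum of 8 B cell markers, with circles for eWAT and squares for iWAT. Gadd45b is high with the macrophage markers in HFD-fed wild type eWAT, and the 3 ND-fed iWAT libraries hold the 3 highest B cell sums (721 to 1060 CPM) with the 2 highest Trp53 values (44.4 and 51.8 CPM).

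The diet comparison in iWAT tested 8 of the 10 genes, since Cdkn2a and Gdf15 had a mean under 1 CPM. HFD raised Cdkn2b, Gadd45a and Ccng1 and lowered Trp53, 4 genes, when 25.9% of the 14801 genes tested were called higher and 24.2% lower. In either direction 50.1% of all genes were called, so 4 of 8 is no result about these genes as a set. In this comparison normalization by TMM, which corrects for differences in RNA composition, raised HFD over ND by 0.14 on the log2 scale relative to library size alone, and no call below changes sign by that amount. These 4 genes were also the 4 whose groups did not overlap, against 23.0% (higher), 24.1% (lower) and 47.1% (either direction) of all genes.

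Cdkn2b rose most, from 4.59, 5.31 and 2.45 CPM on ND to 13.5, 20.2, 15.8, 22.3 and 9.46 CPM on HFD (log2 fold change 2.01 ± 0.49, n = 3 and 5, adjusted p = 0.0078 by edgeR). Gadd45a rose from 13.3, 8.06 and 12.8 CPM to 20.4, 23.7, 16.1, 29.0 and 24.4 CPM (1.03 ± 0.23, adjusted p = 0.00486). Both calls held when any 1 library was left out. Ccng1 rose from 146 ± 31.0 to 203 ± 24.5 CPM (0.51 ± 0.22, adjusted p = 0.0881), a call that was lost in 6 of the 11 fits that leave out 1 library, without ND-fed library 2 (adjusted p = 0.287) or 3 (0.210) or HFD-fed library 2 (0.108), 3 (0.150), 4 (0.160) or 5 (0.104).

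Trp53 went down with HFD in iWAT, from 44.4, 51.8 and 33.0 CPM to 29.9, 27.6, 24.8, 26.3 and 24.9 CPM, with every HFD-fed value below every ND-fed one. The log2 fold change was -0.66 ± 0.13 (adjusted p = 0.00243), and it held when any 1 library was left out (adjusted p at most 0.0166). All 8 B cell and all 8 T cell markers fell in the same comparison, by medians of -5.38 and -3.66 on the log2 scale, and 7 of 8 skeletal muscle markers fell. Across the 11 iWAT libraries Trp53 and the summed B cell markers had r = 0.83, with the ND-fed libraries at one end. Trp53 had r = -0.81 with the adipocyte markers and -0.71 with the fibroblast and progenitor markers. HFD-fed wild type library 5 had the highest B cell sum of its group, 98.5 CPM, with Trp53 at 24.9 CPM. All 3 ND-fed libraries carry the high B and T cell markers, so lymphoid cells and diet cannot be told apart here.

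Gadd45b was at 17.9, 15.3 and 16.9 CPM in ND-fed iWAT and at 21.3, 43.6, 17.3, 22.8 and 22.3 CPM in HFD-fed wild type iWAT, and did not pass the test (log2 fold change 0.64 ± 0.36, adjusted p = 0.170). Cdkn1a (-0.46 ± 0.48, adjusted p = 0.464), Mdm2 (-0.12 ± 0.11, 0.406) and Cdkn2c (0.09 ± 0.16, 0.664) did not pass either. For Cdkn2a and Gdf15 the CPM values were compared by a two-sided exact permutation test, which cannot go below p = 0.0179 with 3 against 5. Cdkn2a averaged 1.23 ± 0.564 CPM on ND and 0.974 ± 0.357 CPM on HFD (exact p = 0.446). Gdf15 averaged 1.70 ± 2.04 and 0.596 ± 0.338 CPM (exact p = 0.232), where ND-fed library 3 alone, at 4.04 CPM, set the ND mean.

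Genotype in iWAT called none of the 8 genes tested, and 0% of the 14801 genes tested, by edgeR at an adjusted p under 0.1. At an unadjusted p under 0.05 it gave 4 of the 8 genes, against 16.7% of all genes, and DESeq2's Wald test called 2 of the 8, Cdkn2b and Gadd45b. The share of all genes that DESeq2 called is not given here, so its count is no result about these genes as a set. Gadd45b was at 8.41, 4.86 and 14.5 CPM in Acod1-/- iWAT, all below the lowest wild type value of 17.3 CPM, with a log2 fold change of -1.47 ± 0.37 (n = 3 and 5, adjusted p = 0.141). Cdkn2b was at 3.45, 4.04 and 13.2 CPM (-1.24 ± 0.47, adjusted p = 0.227), its library 3 within the wild type range.

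Gadd45a (-0.66 ± 0.23, adjusted p = 0.192) and Cdkn2c (0.41 ± 0.16, adjusted p = 0.232) made up the 4. Trp53 was at 22.9, 24.7 and 22.7 CPM, below every wild type value (-0.21 ± 0.13, adjusted p = 0.458), and groups of 4.59% of all genes were apart in this direction. Without library 2, the one with the skin and mammary epithelium markers, none of the 8 genes was called either, and the part of such cells was not tested. Acod1-/- library 3, of the second header series and labelled with 18 weeks, stood apart from the other two. Without it Cdkn2b (log2 fold change -2.11, adjusted p = 0.020), Gadd45b (-1.94, 0.0196) and Ccng1 (-0.56, 0.0665) were called. The share of all genes called in that fit is not given here, so these calls are no result about the genes as a set. Cdkn2a averaged 0.390 ± 0.424 CPM in Acod1-/- iWAT (exact permutation p = 0.0893 against the wild type) and Gdf15 0.570 ± 0.0349 CPM (exact p = 0.946).

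A fit of all 25 libraries over 15034 genes compared the depots. It treats eWAT and iWAT libraries as independent. The labels do not say whether libraries of the same number in the 2 depots come from the same mouse, so the errors and p-values below carry that limit. On ND, 2 of the 10 genes were lower in eWAT than in iWAT and none higher, when 14.2% of genes were called lower and 17.5% higher. These were Trp53 (log2 difference, eWAT minus iWAT, -0.87 ± 0.14, adjusted p = 0.000153) and Gadd45b (-1.40 ± 0.39, adjusted p = 0.0122), and for both the 4 eWAT values lay below the 3 iWAT values, as for 16.9% of genes. All 8 B cell markers were lower in eWAT in the same comparison, by a median of -7.29, and their part was not tested. On HFD in wild type mice, 1 gene was called, Gdf15, which was higher in eWAT (2.34 ± 0.77, adjusted p = 0.0482), when 10.8% of genes were called higher. That call was lost without HFD-fed eWAT library 1 (adjusted p = 0.175), the library with the highest Gdf15 and the highest macrophage sum. Cdkn2a values of all 5 eWAT libraries lay above those of all 5 iWAT libraries, with a log2 difference of 1.42 ± 0.68 that missed the threshold (adjusted p = 0.185) and passed it without ND-fed eWAT library 4 (0.0733), or when the other 4 groups were kept out of the model (0.0123). Groups of 7.04% of all genes were apart in this direction.

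In Acod1-/- mice on HFD none of the 10 genes differed by the test between depots, when 3.81% of all genes were called and 2 of the 10, Cdkn2a and Ccng1, had an unadjusted p under 0.05, against 13.9% of all genes. Their log2 differences were 1.92 ± 0.86 (adjusted p = 0.312) and 0.52 ± 0.23 (adjusted p = 0.306), and without iWAT Acod1-/- library 3 these 2 and Cdkn2b were called. The share of all genes called without that library is not given here. DESeq2 called none.

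The response to HFD differed between depots for 3 of the 10 genes by the interaction term, when 29.0% of all genes were called in either direction. Trp53 differed by 1.03 ± 0.19 on the log2 scale (eWAT response minus iWAT response, adjusted p = 0.000535), with a call in opposite directions in the 2 depots. Its rise in eWAT was small (0.34 ± 0.13), and that call was lost in 3 of the 14 fits that leave out 1 library. Gadd45b differed by 1.43 ± 0.51 (adjusted p = 0.0476), with levels that were lower in eWAT than in iWAT on ND and alike in mean on HFD (26.1 ± 9.27 and 25.5 ± 10.4 CPM). Cdkn2a differed by 2.59 ± 1.06 (adjusted p = 0.0855), a call lost in 9 of the 25 fits that leave out 1 library (adjusted p up to 0.224, without ND-fed iWAT library 2). All 3 terms include ND-fed iWAT, the group with the high lymphoid markers, beside the other wild type groups. In the fits of each depot Gadd45b rose by 2.04 ± 0.36 in eWAT and by 0.64 ± 0.36, not called, in iWAT. Cdkn2a rose by 2.25 ± 0.82 in eWAT, and its diets in iWAT did not differ by the exact permutation test (p = 0.446). Genotype effects on the 10 genes were not shown to differ between depots: none was called by edgeR or DESeq2, none had an unadjusted p under 0.05 (10.1% of all genes did), and 0.00665% of all genes were called.

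Further genes of the pathway were read from fixed lists. Of all genes tested, HFD raised 24.8% and lowered 26.9% in eWAT and raised 25.9% and lowered 24.2% in iWAT, and 9.13% were higher and 10.8% lower in Acod1-/- eWAT. The diet counts for other p53 targets lay near these shares and are no result about that list. The same holds for every list below whose count is said to lie near the shares of all genes. Of 23 other p53 targets tested in eWAT, HFD raised 4 and lowered 7 (median log2 fold change 0.06). Those that rose most firmly were Plk2 (1.85 ± 0.30), Phlda3 (1.93 ± 0.32), which encodes an inhibitor of AKT, and Bax (1.09 ± 0.18), the pore-forming trigger of apoptosis. Those that fell included Perp (-2.80 ± 0.38), a desmosome protein, Rrm2b (-0.64 ± 0.12), a ribonucleotide reductase subunit, and Xpc (-0.95 ± 0.20), a sensor of DNA damage. In eWAT 6 of 7 skin and mammary epithelium markers tested also fell, and the part of such cells in the fall of Perp was not tested. In Acod1-/- eWAT 3 of the 23 fell, Plk2 (-1.51 ± 0.27), Apaf1 (-0.92 ± 0.23) and Bax (-0.61 ± 0.17), and none rose. In iWAT, HFD raised 6, led by Phlda3 (2.24 ± 0.18), Plk2 (1.52 ± 0.25) and Fas (0.64 ± 0.16), and lowered 5, led by Pmaip1 (-2.29 ± 0.25), Ddb2 (-1.49 ± 0.30) and Sesn1 (-0.70 ± 0.17).

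Of the 14 regulators of p53, HFD raised 2 and lowered 5 in eWAT, where the median log2 fold change was -0.08 against -0.04 over all genes, and raised 2 and lowered 7 in iWAT, where it was -0.29 against 0.00. Hipk2, a kinase that activates p53, was among those that rose (1.27 ± 0.34 in eWAT and 1.79 ± 0.17 in iWAT), and Sirt1, which deacetylates p53, among those that fell (-0.67 ± 0.20 and -0.60 ± 0.12). In Acod1-/- eWAT 1 of 14 was called, Cop1 (0.22 ± 0.08). Of 18 further genes of the RB pathway, HFD raised 7 and lowered 4 in eWAT, with Ccne1 (1.70 ± 0.27), E2f1 (1.10 ± 0.18) and Cdk6 (1.41 ± 0.33) higher and Cdkn1b (-0.77 ± 0.16), which encodes p27, lower. Cdk6 (-1.72 ± 0.31), Cdk4 (-0.45 ± 0.12) and E2f1 (-0.62 ± 0.17) were among the 5 that fell in Acod1-/- eWAT, where none rose. In iWAT 5 rose and 6 fell on HFD, near the shares of all genes.

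Of 19 secreted factors linked to senescence that were tested in eWAT, 11 rose and 1 fell on HFD, and 1 rose and 13 fell in Acod1-/- mice. Timp1 (4.27 ± 0.66 and -2.76 ± 0.56) and Plau (1.64 ± 0.30 and -1.56 ± 0.27) were among the firmest in each direction, and Vegfa went the opposite way (-1.55 ± 0.36 and 0.93 ± 0.34). Macrophages and fibroblasts also make many of these factors. In iWAT 9 of 18 rose and 2 fell on HFD. Proliferation genes rose in 16 of 16 cases on HFD in eWAT and fell in 11 of 16 in Acod1-/- eWAT, with Cdk1 at 2.90 ± 0.42 on HFD and Pcna at -0.92 ± 0.22 in Acod1-/- mice. In iWAT 1 rose and 3 fell on HFD. Of 12 genes of the integrated stress response, HFD raised 3 and lowered 3 in eWAT, near the shares of all genes. In iWAT it raised 5 and lowered 1, and Atf3 was at 3.93 ± 0.72 in eWAT and 2.56 ± 0.82 in iWAT. In Acod1-/- eWAT 2 rose and 2 fell, with Atf3 at -2.98 ± 0.63 (log2 fold changes). On HFD, immediate early genes rose in 6 of 14 cases and fell in 2 in eWAT, with Fos at 2.43 ± 0.57. In iWAT they rose in 4 of 13 and fell in 2, near the shares of all genes or under them, with Fos at 2.77 ± 0.53. In Acod1-/- eWAT 5 of 14 fell (Fos at -2.06 ± 0.52).

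**Figure D4:**
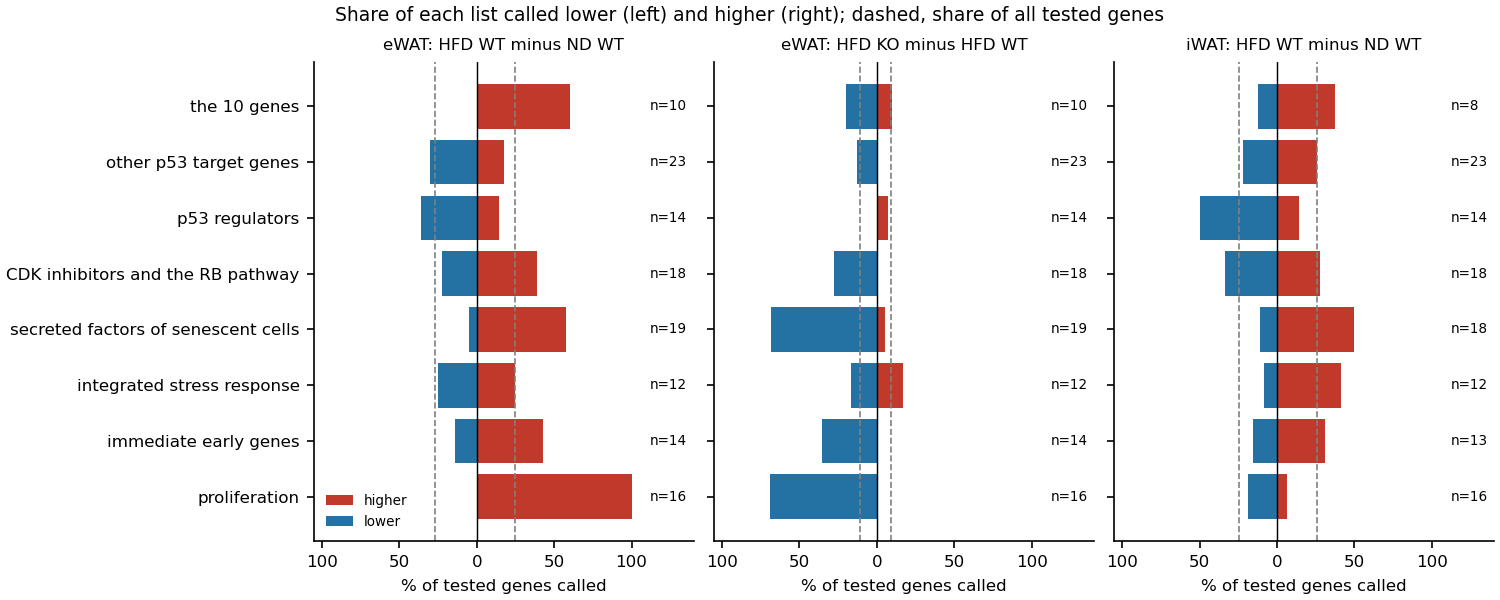
Share (%) of the tested genes of each list called higher (right, red) or lower (left, blue) at an adjusted p under 0.1, for diet in eWAT, genotype in eWAT and diet in iWAT; dashed lines give the share among all tested genes and n the genes tested. Of the 10 genes, 6 rose with diet in eWAT, while 23 other p53 targets had 4 higher and 7 lower.

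Over the 25 libraries, each gene was compared with 11420 genes that averaged at least 5 CPM by Pearson's r of log2 CPM, and the 3 most alike were named. Gadd45b was most like Ifnar2 (r = 0.91), Runx2 (0.88) and Tmsb10 (0.85), and Cdkn2b most like Chpf (0.93), Eif1a (0.91) and the collagen gene Col12a1 (0.91). Gadd45a was most like Ccl2 (0.87), a chemokine that attracts monocytes, Nudcd2 (0.87) and Castor2 (0.85). Trp53 was most like Shisa5 (0.89), itself a p53 target, Cnp (0.88) and Tmem173 (0.88). Cdkn2c was most like Gatb (0.87), Tlcd1 (0.86) and C1qtnf12 (0.86), Ccng1 most like Eif2s1 (0.89), Dhx32 (0.86) and Ufm1 (0.86), Mdm2 most like Stxbp3 (0.83), Flvcr1 (0.83) and Wsb1 (0.81), and Cdkn2a most like Pdlim2 (0.83), Mob3a (0.79) and Fxyd5 (0.79). Cdkn1a, with Rangap1 (0.79), Trib1 (0.78) and Dhx38 (0.76), and Gdf15, with Dlg3 (0.72), Pla2g7 (0.68) and Card19 (0.68), had the weakest likenesses. The libraries share diet, depot and series, so these values describe them and carry no test.

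Among the 10 genes themselves, Ccng1 and Cdkn2b went together in both depots (r = 0.80 over 14 eWAT and 0.81 over 11 iWAT libraries). Cdkn2a and Gadd45a had r = 0.88 in eWAT and -0.14 in iWAT. Cdkn2c had r = -0.91 with Gdf15 and -0.76 with Mdm2 in eWAT. Trp53 and its target Cdkn1a had r = 0.22 in eWAT and 0.52 in iWAT, and Trp53 and Mdm2 had 0.39 and 0.60.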

How the data were processed

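RNA-seq of eWAT and iWAT came from 25 libraries in 6 groups of 3 to 5, grouped by the labels. Per the labels and the study's methods, the authors prepared directional mRNA libraries, trimmed reads with cutadapt, filtered contaminants and aligned to GRCm38 with STAR, and mm10 and bedtools are also named. The authors deposited, per library, raw counts of uniquely aligned reads per gene, the cDNA length in bases and FPKM values, which were not tested. The counting program and its strand setting are not given in the sources used here. Genes were named by GENCODE vM21, which gave 54723 of 54752 rows a symbol.

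Counts were fitted with edgeR 4.0.16 (R 4.3.3; TMM, quasi-likelihood) on genes averaging at least 1 CPM, with 3 groups per depot or 6 groups over 25 libraries for depots and interactions. Benjamini-Hochberg adjustment covered all genes, and an adjusted p under 0.1 was called. SE is the log2 fold change divided by the square root of F. Log2 CPM used a prior count of 2. TPM was computed from counts and lengths. DESeq2 1.42.0 was an alternative, with other filters, scaling, sample choices, a series term, a replicate block and each library left out. Scripts were tested on simulated data. Figures and tables used Python 3.11.15. The numbers of mice the study gives for its eWAT and iWAT RNA-seq equal the libraries per group, from 1 experiment. None were copies (chi-square per degree of freedom at least 33.7). Rows naming no gene were left out (no feature 6.41 to 11.9%, ambiguous 1.52 to 2.07%). Depth of 31.4 to 52.3 M reads limits Cdkn2a and Gdf15.

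Members and gene lists were chosen with earlier results of these data known. Named genes were the 10 genes, Acod1, up to 3 called genes per list, direction and comparison with the smallest adjusted p and a mean of at least 1 CPM, the 3 most alike genes, and overlapping genes. Ddit3 matched 2 identifiers and was left out.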

Additional observations from a re-analysis of the deposited data

Results flagged for a closer look

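Of 40 sets of 4 or 5 library values (10 genes in 4 groups) tested for a value far from the rest, 1 stood out, where chance gives about 1 in 20: Gadd45b in HFD-fed wild type iWAT library 2, at 43.6 CPM, when the other 4 libraries of its group lay between 17.3 and 22.8 CPM. The diet effects of 3 of the 10 genes differed between the depots by the interaction term of edgeR's fit over 25 libraries. That is near the share of all genes called for this term, 29.0%. The log2 differences (eWAT response minus iWAT response) were 2.59 for Cdkn2a, 1.03 for Trp53 and 1.43 for Gadd45b. The 3 ND-fed iWAT libraries, which enter these terms beside the other wild type groups, summed to 721 to 1060 CPM of B cell markers. The part of those cells was not tested.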

How the results depend on the processing

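Of the 10 genes, 6 were called for diet in eWAT, and 5 to 6 under every alternative. For genotype in eWAT the 3 calls became 5 with DESeq2's Wald test, 1 at an adjusted p under 0.05 and 1 to 5 with a library left out. The 4 calls for diet in iWAT became 3 to 5. For genotype in iWAT the 0 calls became 2 with DESeq2's Wald test, 3 within the first header series (chosen after seeing the data) and 0 to 3 with a library left out. For the depots on HFD in wild type mice the 1 call became 0 with at least 1 CPM in every library (Gdf15 fell under that filter), 3 with only the groups compared, 2 within the first header series and 0 to 2 with a library left out, and in Acod1-/- mice the 0 calls became 0 to 3 with a library left out. The depot by diet calls (3) became 2 to 4, and the depot by genotype term gave 0 calls throughout. Directions turned only for differences that had not passed the test: Cdkn1a for diet in eWAT (0.41 with the series term), Mdm2 for genotype in iWAT (0.0047 within the first series), and, with a library left out, Mdm2 for diet in eWAT (-0.013 to 0.21), Ccng1 for genotype in eWAT (-0.30 to 0.016), Cdkn2c for diet in iWAT (-0.021 to 0.18) and Mdm2 for genotype in iWAT (-0.073 to 0.0086). For 38 further depot differences with an unadjusted p of 0.05 or more, 62 of 1278 alternative values had the other sign and 2 were called. Without TMM factors, the order of the 6 group means was kept by 5 of 10 genes and the highest group by 10. The causes were not tested. Shares of all genes called under these alternatives are not given here, so counts that changed are no result about the 10 genes as a set. Depth limits Cdkn2a and Gdf15.

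The groups share replicate numbers, and whether the numbers pair the libraries is not settled. Of same-numbered pairs from 2 groups, 9 of 13 within eWAT, 3 of 9 within iWAT and 5 of 11 between depots had a correlation of deviations over 0.1. Pairs with unlike numbers did so in 12 of 52, 8 of 30 and 7 of 41 cases. Libraries correlated best with their own number in 13 of 26, 7 of 18 and 13 of 22 cases, and no test of pairing was run. With the number as a block, 6, 2, 3 and 0 of the 10 genes were called for diet and genotype in eWAT and diet and genotype in iWAT, and Cdkn2c for diet in iWAT became -0.017. The block ended the calls of Cdkn2b for genotype in eWAT (adjusted p = 0.134), Ccng1 for diet in iWAT (0.166) and Cdkn2a for the depot by diet term (0.116).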
